A study of Neurospora crassa with 12 samples.

Results

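The response of the libraries labelled mus-52 to inorganic phosphate (Pi) in Neurospora crassa is described here as the 3 high-Pi libraries against the 3 low-Pi libraries of that strain, 6 of the 12 libraries of the series. All genes of the deposited count tables entered the comparison, and those with too few counts were left out of the tests. Conidia of a mat a strain with the genotype label mus-52 deletion, made by a hygromycin-resistance insertion, germinated at 30 °C over 5 h with 44 mM sucrose and either 10 mM Pi (high-Pi) or 10 µM Pi (low-Pi), with replicates I to III in each medium. The other 6 libraries came from a wild type of mat A in the same media. They enter only the comparison of strains at the end. Each genotype is 1 strain, so mus-52, the mating type and any other difference between the strains cannot be told apart. The signed log2 fold change is high-Pi over low-Pi throughout. Genes past an adjusted p-value of 0.05 that also changed by 1.5 or more on the log2 scale are called differentially expressed genes (DEGs), by the quasi-likelihood test of edgeR with Benjamini-Hochberg adjustment over all genes tested. Levels are CPM, counts scaled to the library total and not corrected for gene length.

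Fungi take up Pi as the free anion and store it as polyphosphate. In Neurospora, low Pi releases the transcription factor NUC-1 from the cyclin and kinase pair that includes PREG, and NUC-1 then activates genes for secreted phosphatases and high-affinity Pi permeases. MUS-52 is the homolog of Ku80, a subunit of the Ku complex that binds broken DNA ends for non-homologous end joining, and strains without it are used as hosts for gene replacement. The comparison asks which transcripts differed between phosphate-rich and phosphate-poor medium in a strain of this genotype.

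The labels were checked first. The mus-52 gene itself (NCU00077, III:2531930-2535354, NC12 assembly) had 1344, 513 and 831 counts in high-Pi replicates I, II and III and 970, 567 and 487 counts in low-Pi replicates I, II and III. Its level was 22.9 ± 1.40 CPM in high-Pi (SD, n = 3) and 24.8 ± 2.66 CPM in low-Pi, with a log2 fold change of -0.11 (SE 0.112, adjusted p = 0.495). In the wild type, on the separate scale of the 12-library fit, it stood at 75.9, 37.0 and 24.0 CPM in high-Pi replicates I, II and III and at 38.9, 20.8 and 19.5 CPM in low-Pi, so that wild-type replicate I was the highest of its medium in both. Transcript reads from the disrupted gene were thus present in every library, and a gene total does not show which part of the gene they cover, so the libraries are called by their label. The mating type was that of the strain named. The gene mfa-1, which encodes the pheromone precursor of mat a strains, stood at 608 to 3020 CPM of the total counts in the 6 libraries labelled mus-52 and at 4.41 to 18.4 CPM in the 6 wild-type libraries. The gene ccg-4, the pheromone precursor of mat A strains, stood at 0.0417 to 0.503 CPM under the label mus-52 and at 32.6 to 123 CPM in the wild type. The genes matA-1, matA-2 and matA-3 of the mat A idiomorph had 0 counts in all 6 libraries labelled mus-52. They barely separate the strains, as the wild-type libraries had 0 counts of matA-1, 0 to 4 of matA-2 and 0 to 9 of matA-3.

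The 6 libraries held 17888120 to 56152963 counts on 8340 to 8604 genes, and the 10 genes with most counts took 9.8 to 10.8% of each total. At these depths 3 counts corresponded to 0.054 to 0.169 CPM. Log2 CPM values correlated across genes at 0.99 to 0.993 within a medium and at 0.965 to 0.983 between media. High-Pi replicate III lay nearest to the low-Pi libraries (0.976 to 0.983 against 0.965 to 0.976 for the other high-Pi replicates). On the first principal component, with 70.2% of the variance, it scored 16.1 against 31.2 and 30.9 for high-Pi replicates I and II, while the low-Pi libraries scored -20.9, -25.8 and -31.5.

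Most of the large changes in high-Pi were decreases. Of 7613 genes tested, 263 (3.45%) were down-regulated DEGs and 9 (0.118%) were up-regulated DEGs. The median log2 fold change was -1.92 for the decreases, which reached -4.74, and 1.66 for the increases, which reached 1.90. The split was less uneven without the threshold on the fold change. By the adjusted p-value alone, 1089 genes (14.3%) were higher in high-Pi with a median log2 fold change of 0.44, and 1322 (17.4%) were lower with a median of -0.78. Of these, 1060 higher and 831 lower genes changed by less than 1 on the log2 scale, and the median over all genes tested was -0.0030. The 3 high-Pi values lay wholly above or below the 3 low-Pi values in 3577 genes (47.0%) and in 271 of the 272 DEGs. The exception was the low-level gene NCU01562.

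**Figure D1:**
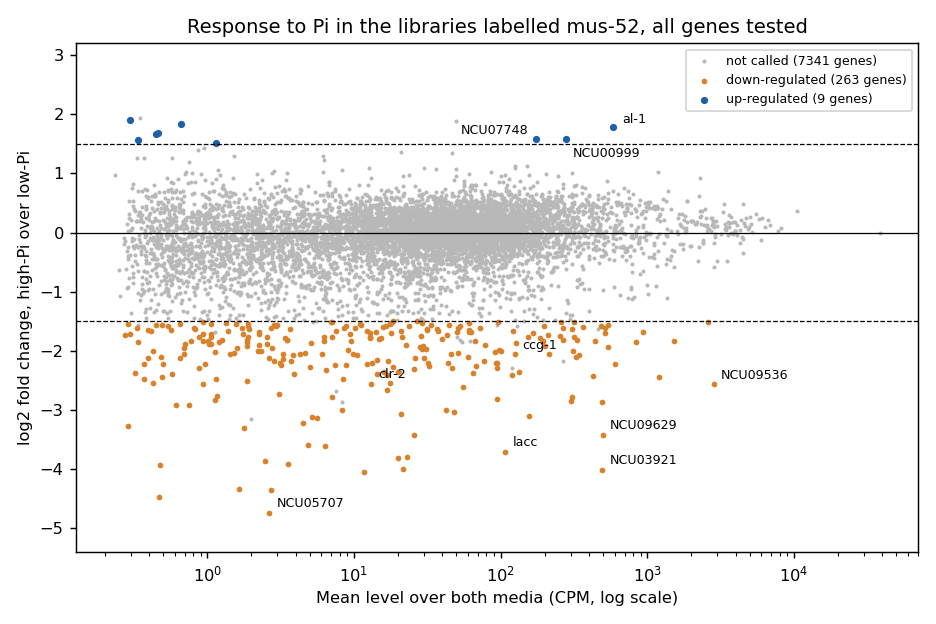
Each point is 1 of the 7613 genes tested in the libraries labelled mus-52, with its mean level over both media (CPM, log axis) and its log2 fold change, high-Pi over low-Pi. Dashed lines mark 1.5 in either direction. The 263 down-regulated genes (orange) spread over the whole range of levels, while 6 of the 9 up-regulated genes (blue) lie at low levels and al-1, NCU07748 and NCU00999 are the others.

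The down-regulated DEGs covered all levels of expression. In the medium with the higher mean, 86 were under 5 CPM, 94 between 5 and 50 CPM, 60 between 50 and 500 CPM and 23 over 500 CPM. Together the 263 genes held 34033 to 48935 CPM in the low-Pi libraries and 7788 to 14163 CPM in the high-Pi libraries. Their median level was 15.6, 16.4 and 19.2 CPM in low-Pi replicates I, II and III and 3.49, 3.76 and 4.85 CPM in high-Pi replicates I, II and III. Replicate III was the highest of its medium in 178 of the 263 genes in low-Pi and in 173 in high-Pi. Leaving out high-Pi replicate III gave 326 down- and 12 up-regulated genes. In each of the 6 fits that left out 1 library, 168 of the 263 down-regulated genes and 1 of the 9 up-regulated genes were called. The up-regulated genes numbered 4 when low-Pi replicate II was left out, 5 for high-Pi replicate I and 14 for low-Pi replicate I. Of the down-regulated genes, 43 overlapped another annotated gene (16.3%, against 25.0% of all genes tested), where counting without a stated strand could mix reads of both.

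The largest of the well-expressed increases was albino-1. The gene al-1 (NCU00552, I:8029857-8032395) encodes phytoene desaturase of carotenoid synthesis. It stood at 1008, 735 and 980 CPM in high-Pi replicates I, II and III and at 385, 159 and 243 CPM in low-Pi replicates I, II and III. The media did not overlap, and the log2 fold change was 1.79 (SE 0.353, adjusted p = 0.0156). Without high-Pi replicate I (1.70) or low-Pi replicate III (1.73) it no longer passed the test.

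The hypothetical protein genes NCU00999 and NCU07748 rose about as far. NCU00999 (V:2635037-2636342) had 466, 367 and 421 CPM in high-Pi and 146, 116 and 157 CPM in low-Pi, a log2 fold change of 1.58 (SE 0.131, adjusted p = 9.0e-06). It fell just short of the threshold without high-Pi replicate I (1.49) or low-Pi replicate II (1.46). NCU07748 (V:435472-436752) had 297, 191 and 297 CPM in high-Pi and 115, 55.4 and 90.6 CPM in low-Pi, a log2 fold change of 1.58 (SE 0.328, adjusted p = 0.0181). Its groups did not overlap, but it was not called without high-Pi replicate I (1.48), high-Pi replicate III (1.48), low-Pi replicate II (1.34) or low-Pi replicate III (1.61). The other 6 up-regulated genes, named after their values were seen, were NCU00548, NCU05887, NCU04028, NCU06504, NCU03574 and NCU05568, all under 2 CPM in every library. Of these only NCU06504 (log2 fold change 1.68, SE 0.371, adjusted p = 0.00597) was called whichever library was left out.

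The next genes are non-overlapping DEGs that reached a mean of 5 CPM in the higher medium. Most of those with the largest decreases had no product name other than hypothetical protein in the study's lists. Of these, the study places NCU04148 and NCU09627 among integral membrane components. NCU05707 (III:584541-585538) went from 4.21, 4.15 and 7.01 CPM in low-Pi replicates I, II and III to 0.252, 0.0836 and 0.166 CPM in high-Pi, which is 14, 2 and 6 counts. The log2 fold change was -4.74 (SE 0.363, adjusted p = 4.9e-06). NCU09964 (V:6058227-6058877) went from 3.50, 5.13 and 6.95 CPM to 0.108, 0.0836 and 0.555 CPM, a log2 fold change of -4.35 (SE 0.543, adjusted p = 7.3e-04). In both genes every low-Pi library was several times above every high-Pi library. NCU09603 (II:76425-78257) went from 18.1, 22.6 and 25.5 CPM to 0.955, 1.00 and 2.03 CPM, with a log2 fold change of -4.05 (SE 0.273, adjusted p = 8.6e-06). NCU02740, NCU02939, NCU04148, NCU06641 and NCU09627 had log2 fold changes of -3.92, -3.79, -3.61, -3.59 and -3.43, with NCU07149 between NCU09603 and NCU02740 in size, and all were called whichever library was left out. NCU09613 (-3.81, SE 0.736, adjusted p = 0.0200) is on the study's lists of genes that mating type could regulate. Such genes are called mating-type dependent here, a label that was not tested. The genes al-3, con-6, stk-52, hsp30, NCU08407 and mfa-1 are also on those lists. NCU09613 was called only in the full set and without high-Pi replicate III, with log2 fold changes of -3.38 to -3.96 in the other leave-outs.

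Genes with a product name were among the strongest decreases too. NCU03921 (VI:2138394-2141840) is named as the mitochondrial chaperone bcs1, which in yeast assembles the Rieske subunit into cytochrome bc1. It stood at 655, 953 and 1188 CPM in low-Pi replicates I, II and III and at 31.4, 36.8 and 105 CPM in high-Pi replicates I, II and III. The log2 fold change was -4.01 (SE 0.650, adjusted p = 0.0125), and the gene overlaps NCU03922 in the annotation. The laccase precursor gene lacc (NCU04528, VII:1565531-1568002), for an enzyme that oxidises phenols, stood at 135, 233 and 233 CPM in low-Pi and at 5.15, 11.0 and 30.0 CPM in high-Pi. Its log2 fold change was -3.71 (SE 0.782, adjusted p = 0.0271). The media did not overlap for lacc, yet it lost its call without high-Pi replicate II (-3.52), low-Pi replicate I (-3.93), low-Pi replicate II (-3.58) or low-Pi replicate III (-3.59).

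**Figure D2:**
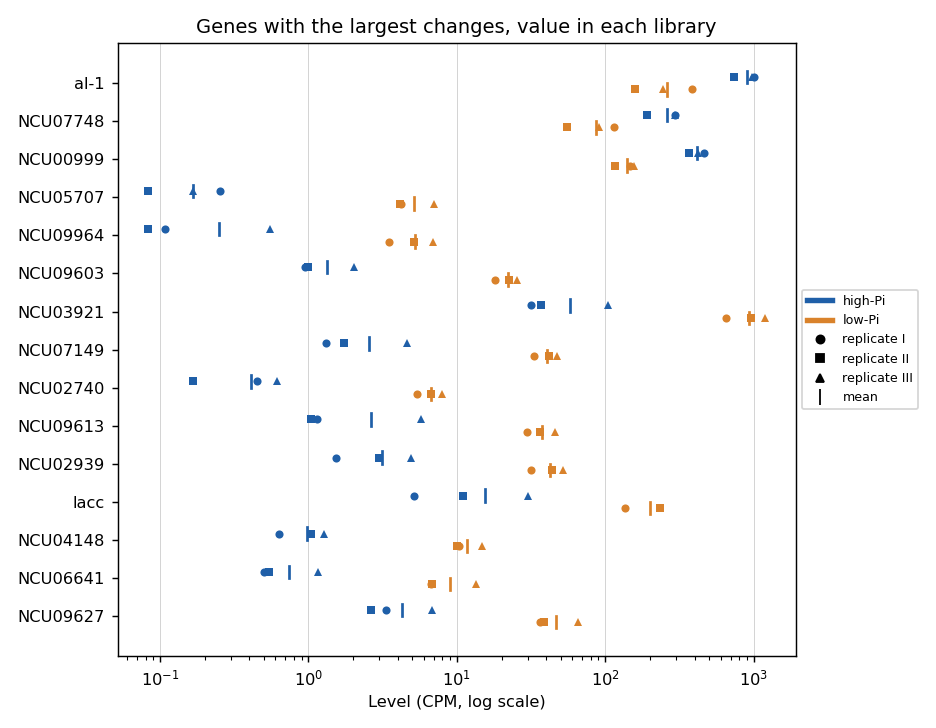
Level of each gene in each of the 6 libraries labelled mus-52 (CPM, log axis), with high-Pi in blue, low-Pi in orange, the replicate as the symbol and the mean of 3 as a bar. For al-1, NCU07748 and NCU00999 the blue points lie to the right of the orange ones and for the 12 other genes to the left, without overlap, and high-Pi replicate III is the blue point nearest to the low-Pi libraries in 11 of these 12.

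The 6 DEGs with the highest mean CPM all fell. NCU09536, a hypothetical protein, went from 3911, 4842 and 5866 CPM in low-Pi to 526, 665 and 1274 CPM in high-Pi (log2 fold change -2.57, SE 0.408, adjusted p = 0.00966). NCU08229 went from 1611, 2116 and 2345 CPM to 217, 294 and 607 CPM (-2.44, SE 0.462, adjusted p = 0.0176), and was not called without high-Pi replicate II (-2.28), low-Pi replicate II (-2.41) or low-Pi replicate III (-2.33). NCU11050 went from 1003, 1362 and 1543 CPM to 259, 332 and 493 CPM (-1.85, SE 0.282, adjusted p = 0.00513). In all of these the low-Pi libraries lay above the high-Pi libraries.

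The remaining genes of this group passed the threshold less firmly. The acetyltransferase gene NCU04583, a mating-type dependent gene, stood at 3270, 3321 and 4922 CPM in low-Pi and 1190, 1144 and 1690 CPM in high-Pi (-1.52, SE 0.216, adjusted p = 0.00241). It was below the fold threshold without high-Pi replicate I (-1.44), high-Pi replicate II (-1.39) or low-Pi replicate III (-1.30). NCU03591, annotated as an ATP-dependent bile acid permease, stood at 1849, 2515 and 2813 CPM in low-Pi and 398, 555 and 1064 CPM in high-Pi (-1.83, SE 0.433, adjusted p = 0.0328), and of the leave-outs only that of high-Pi replicate III kept the call, the others giving -1.57 to -1.99. NCU04410 stood at 1102, 1447 and 1692 CPM in low-Pi and 288, 373 and 664 CPM in high-Pi (-1.68, SE 0.369, adjusted p = 0.0235). It was not called without high-Pi replicate I (-1.45), high-Pi replicate II (-1.56), low-Pi replicate II (-1.66) or low-Pi replicate III (-1.53).

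Further DEGs that the study names for this comparison also fell in the same way. NCU09629 went from 680, 905 and 1149 CPM in low-Pi to 59.7, 59.4 and 136 CPM in high-Pi (-3.42, SE 0.461, adjusted p = 0.00587). NCU00878 went from 216, 263 and 365 CPM to 25.3, 27.7 and 45.5 CPM (-3.10, SE 0.323, adjusted p = 0.00179). NCU16370 and NCU06977 fell by 3.07 and 2.28 on the log2 scale. The study describes NCU06977 as a putative ATP synthase F0 subunit, and it is not in the respiration list given below. All of these genes were chosen by the study on these samples, so they are no independent evidence of direction. NCU11307, annotated as CCC1, was not called: it stood at 130, 86.7 and 19.6 CPM in high-Pi replicates I, II and III against 20.0, 23.8 and 20.5 CPM in low-Pi (1.88, SE 0.742, adjusted p = 0.132). High-Pi replicate III lay below all low-Pi libraries there, and without it the gene was up-regulated (2.34).

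The genes of the phosphate pathway showed no DEG. Of the 8 genes found, 7 could be tested. One of these was higher by the adjusted p-value, the same share (14.3%) as over all genes tested, and none was lower. The median log2 fold change was 0.10, against -0.0030 over all genes tested. The regulator genes came first. The transcript of nuc-1, the activator of Pi acquisition genes, stood at 92.0, 81.3 and 106 CPM in high-Pi replicates I, II and III and 103, 112 and 109 CPM in low-Pi (log2 fold change -0.21, 95% interval -0.41 to -0.01, adjusted p = 0.136). The ankyrin-repeat gene nuc-2 stood at 155, 128 and 161 CPM in high-Pi and 137, 120 and 134 CPM in low-Pi (0.18, -0.02 to 0.38, adjusted p = 0.207). The cyclin gene preg stood at 129, 118 and 125 CPM in high-Pi and 116, 126 and 104 CPM in low-Pi (0.10, -0.08 to 0.29, adjusted p = 0.430). The media overlapped for nuc-1, nuc-2 and preg, and the intervals are not adjusted for the number of genes. They are also narrower than the quasi-likelihood test allows, by which nuc-1 had an unadjusted p of 0.0613. The MAP kinase gene mak-2 was low, at 1.12, 1.09 and 1.28 CPM in high-Pi and 1.42, 1.33 and 1.13 CPM in low-Pi (-0.17, -0.67 to 0.32, adjusted p = 0.640).

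Of the phosphatase and permease genes, pho-2 was the one that passed the adjusted p-value. It encodes an alkaline phosphatase and stood at 9.44, 9.15 and 10.2 CPM in high-Pi against 6.72, 6.38 and 6.89 CPM in low-Pi. The groups did not overlap and the higher level was in the phosphate-rich medium (0.53, SE 0.137, adjusted p = 0.0129). Without low-Pi replicate II the adjusted p was 0.0560. The high-affinity permease gene pho-5 stood at 40.7, 46.2 and 60.9 CPM in high-Pi and 54.1, 60.9 and 90.6 CPM in low-Pi (-0.47, SE 0.234, adjusted p = 0.176). In each medium replicate III was the highest for pho-5, and with the replicate number as a block the gene was lower in high-Pi (-0.46, adjusted p = 7.8e-04), as it was without high-Pi replicate III (-0.65, adjusted p = 0.0468). The acid phosphatase gene pho-3 stood at 1.55, 1.67 and 1.17 CPM in high-Pi and 0.583, 1.45 and 0.791 CPM in low-Pi (0.65, -0.03 to 1.33, adjusted p = 0.175), and without low-Pi replicate II it passed (1.13, adjusted p = 0.0447). Without high-Pi replicate III nuc-1 passed too (-0.31, adjusted p = 0.0312). The permease gene pho-4 is listed at 0 counts in every library. It has 2 annotated transcripts and overlaps NCU12035.

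**Figure D3:**
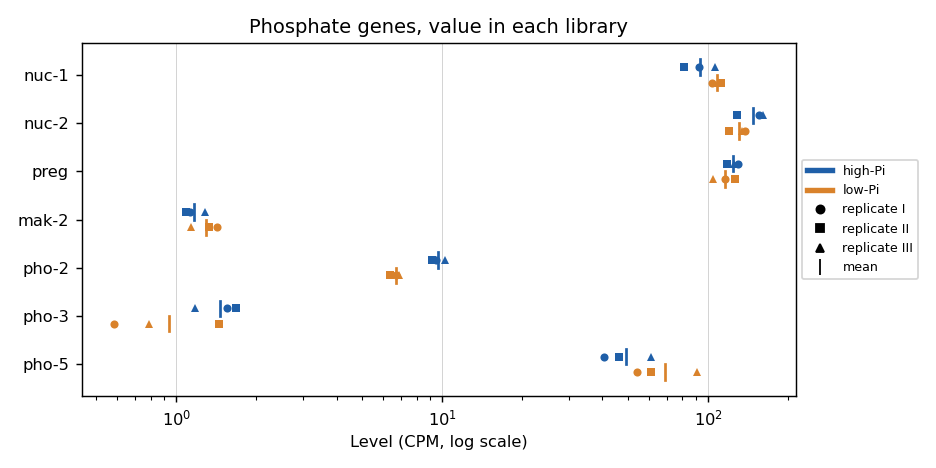
Level of the 7 phosphate genes tested in each of the 6 libraries labelled mus-52 (CPM, log axis), with high-Pi in blue, low-Pi in orange, the replicate as the symbol and the mean of 3 as a bar. The 2 media separate for pho-2 alone, at 9.15 to 10.2 CPM against 6.38 to 6.89 CPM, and the other 6 genes overlap.

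The counts of the lists that follow stand against 14.3% of all genes tested that were higher, 17.4% that were lower and 3.45% that were down-regulated DEGs. Carotenoid synthesis was the list with the highest median, 0.82 over 5 genes tested, of which 2 (40.0%) were higher. Neurospora makes the orange pigment neurosporaxanthin from geranylgeranyl diphosphate, and light induces the pathway. List members other than those the rule names were picked after their values were seen, here and in the paragraphs that follow. Beside al-1, al-3 for geranylgeranyl diphosphate synthase was higher in high-Pi, at 280, 304 and 432 CPM against 231, 142 and 204 CPM in low-Pi (0.82, SE 0.223, adjusted p = 0.0292), though not without low-Pi replicate III (0.85). The phytoene synthase gene al-2 stood at 229, 117 and 173 CPM in high-Pi and 126, 49.1 and 62.8 CPM in low-Pi (1.12, SE 0.471, adjusted p = 0.147). Replicate I was the highest of its medium for al-1 and al-2 in both media. With the replicate number as a block al-2 (1.19, adjusted p = 2.9e-06) and the torulene oxygenase gene cao-2 (0.66, adjusted p = 9.0e-04) also passed, so that 4 of 5 genes were higher, as they were without low-Pi replicate I, whereas none was without low-Pi replicate III.

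Of 10 light-regulated genes tested, 1 (10.0%) was higher and 1 (10.0%) was lower, near the shares over all genes, and the median was -0.09. The photolyase gene phr stood at 492, 391 and 472 CPM in high-Pi and 354, 187 and 254 CPM in low-Pi (0.77, SE 0.223, adjusted p = 0.0353), and did not pass without high-Pi replicate I (0.70), high-Pi replicate III (0.74) or low-Pi replicate III (0.74). The phytochrome gene phy-1 fell, from 29.9, 27.9 and 29.0 CPM in low-Pi to 15.7, 15.5 and 14.3 CPM in high-Pi (-0.93, SE 0.103, adjusted p = 7.3e-05). The light-induced gene bli-4 stood at 47.6, 33.6 and 41.1 CPM in high-Pi and 28.7, 13.0 and 14.9 CPM in low-Pi (1.09, adjusted p = 0.0557). It passed with the block (1.16, adjusted p = 4.6e-05), when 3 genes of the list were higher and 2 lower. Low-Pi replicate I was the highest low-Pi library for phr, bli-4, al-1, al-2 and al-3. Without it 3 light genes and 4 carotenoid genes were higher.

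Among the conidiation genes 7 passed the adjusted p-value, all of them lower in high-Pi. Asexual spores form on aerial hyphae under the control of regulators such as FL and the acon genes, and ccg-1 is repressed by glucose and driven by the circadian clock. Of 18 tested 3 (16.7%) were down-regulated DEGs and 7 (38.9%) were lower by the adjusted p-value. The median was -0.32, and it was -0.65 to -0.35 with 1 library left out, over the genes tested in each fit. The gene ccg-1, a mating-type dependent gene, fell from 206, 179 and 225 CPM in low-Pi to 50.3, 53.9 and 42.0 CPM in high-Pi (-2.06, SE 0.119, adjusted p = 1.2e-06). The gene con-13 fell from 2.38, 2.47 and 2.60 CPM to 0.594, 0.292 and 0.860 CPM (-2.03, SE 0.314, adjusted p = 8.3e-04). Both kept their call whichever library was left out. The gene acon-2 fell from 1.60, 1.80 and 1.36 CPM to 0.558, 0.627 and 0.472 CPM (-1.54, SE 0.280, adjusted p = 0.00212), and lay below the fold threshold without high-Pi replicate III (-1.44) or low-Pi replicate II (-1.44).

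Other members of the conidiation list fell by less. The development gene fld went from 95.6, 110 and 97.2 CPM in low-Pi to 42.7, 41.5 and 41.6 CPM in high-Pi (-1.27, SE 0.0878, adjusted p = 3.3e-06), and ccg-8 fell by 1.14 on the log2 scale (adjusted p = 0.00188). One member was decided by a single library. The gene con-6 stood at 20.2, 16.3 and 16.1 CPM in high-Pi and at 17.9, 2.98 and 2.77 CPM in low-Pi replicates I, II and III (1.09, adjusted p = 0.378), and without low-Pi replicate I it was higher in high-Pi (2.61, adjusted p = 5.7e-06). The gene con-10 had its highest value, 18.4 CPM, in the same library (-1.20, adjusted p = 0.137).

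Of the mating genes, the pheromone receptor gene pre-2 fell from 5.88, 5.05 and 4.52 CPM in low-Pi to 1.19, 0.543 and 1.53 CPM in high-Pi (-2.20, SE 0.287, adjusted p = 2.6e-04), called whichever library was left out. It was 1 of 3 tested. Without high-Pi replicate III or low-Pi replicate I the list held 2 lower genes, over the genes tested in each fit. The second was not mfa-1, which turned to 0.20 and 0.30 in those fits. The pheromone gene mfa-1 stood at 2702, 1561 and 608 CPM of the total counts in high-Pi replicates I, II and III and at 3020, 1714 and 930 CPM in low-Pi (-0.20, adjusted p = 0.868). The media overlapped, but in each same-numbered pair the high-Pi library was the lower, and with the replicate number as a block the gene was lower in high-Pi (-0.30, adjusted p = 0.0333), which made 2 of the 3 mating genes lower.

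Genes for plant cell wall breakdown included 3 down-regulated DEGs, the regulator gene clr-2 and a pair of family 61 genes. Neurospora degrades cellulose with secreted hydrolases and oxidative enzymes under the transcription factor CLR-2. As a list they did not stand far from all genes. Of 70 tested 3 (4.29%) were down-regulated DEGs, 11 (15.7%) were lower, 5 (7.14%) were higher and the median was -0.12. The gene clr-2 fell from 20.4, 23.9 and 22.8 CPM in low-Pi to 2.34, 4.51 and 4.77 CPM in high-Pi (-2.56, SE 0.239, adjusted p = 7.3e-05). The gene gh61-5, of the lytic polysaccharide monooxygenase family, fell from 138, 184 and 171 CPM to 15.9, 21.2 and 33.2 CPM (-2.81, SE 0.303, adjusted p = 0.00195). The gene gh61-11, of the same family, fell from 3.07, 2.35 and 3.39 CPM to 0.468, 0.585 and 1.28 CPM (-1.92, SE 0.350, adjusted p = 0.00222). For all of these the groups did not overlap and no leave-out removed the call. The glycoside hydrolase gene gh7-1 (-1.17, adjusted p = 1.5e-04) and the xylanase regulator gene xlr-1 (-0.60, adjusted p = 0.00230) fell by less, and gh6-3 rose (0.72, adjusted p = 0.00374). The count of higher members was 2 without high-Pi replicate II, low-Pi replicate II or low-Pi replicate III.

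Membrane transporters were picked by product name from genes the study selected on these samples, so their count is no independent evidence of direction. Of 39 tested 5 (12.8%) were down-regulated DEGs, 15 (38.5%) were lower, 7 (17.9%) were higher and the median was -0.30. They were led by the ATP-binding cassette transporter gene NCU10009, which fell from 265, 362 and 403 CPM in low-Pi to 49.9, 74.6 and 123 CPM in high-Pi (-2.06, SE 0.385, adjusted p = 0.0147), though not called without high-Pi replicate II (-1.98) or low-Pi replicate II (-2.02). The high-affinity glucose transporter gene NCU04963 fell from 85.7, 88.2 and 113 CPM to 22.0, 22.9 and 44.3 CPM (-1.68, SE 0.321, adjusted p = 0.0141) and kept its call whichever library was left out. The multidrug transporter gene NCU06860, a mating-type dependent gene, fell from 29.6, 30.7 and 35.0 CPM to 6.88, 7.23 and 15.7 CPM (-1.67, SE 0.341, adjusted p = 0.0144), below the fold threshold without high-Pi replicate I (-1.45) or high-Pi replicate II (-1.49). The mitochondrial carrier gene NCU06662 (0.96, adjusted p = 5.9e-04) and the MFS transporter gene NCU08407 (0.90, adjusted p = 8.1e-05) rose. Leaving out high-Pi replicate II brought the down-regulated members to 1, and leaving out high-Pi replicate I, low-Pi replicate II or low-Pi replicate III brought them to 3.

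Respiration genes were higher by small amounts. Of 45 tested 20 (44.4%) were higher in high-Pi, 2 (4.44%) were lower, and the median log2 fold change was 0.29. The largest increase was in aod-1, the alternative oxidase that passes electrons from ubiquinol to oxygen without pumping protons. It stood at 1800, 1806 and 1176 CPM in high-Pi replicates I, II and III and 743, 804 and 795 CPM in low-Pi (1.03, SE 0.152, adjusted p = 0.00101). The ATP synthase genes atp-2 (4052, 4007 and 3694 CPM against 2973, 2905 and 2491 CPM) and atp-1 (2964, 2842 and 2646 CPM against 2304, 2163 and 2003 CPM) rose by 0.49 and 0.39 on the log2 scale. The cytochrome oxidase gene cya-4 rose by 0.47. The lower members were bcs1, given above, and cyt-20, a tRNA synthetase gene, at 813, 643 and 725 CPM in high-Pi against 1151, 1126 and 1139 CPM in low-Pi (-0.65, adjusted p = 9.0e-04). The count of higher members was 13 without high-Pi replicate I, 11 without high-Pi replicate II, 12 without low-Pi replicate II and 12 without low-Pi replicate III, while the median stayed between 0.23 and 0.32.

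Of 16 sulfur assimilation genes tested 7 (43.8%) were higher, none was lower and the median was 0.22. The ATP sulfurylase gene cys-11, a mating-type dependent gene, stood at 1031, 815 and 757 CPM in high-Pi and 643, 487 and 421 CPM in low-Pi (0.75, SE 0.168, adjusted p = 0.00920). The gene cys-9, for thioredoxin reductase, rose by 0.53. Of 9 oxidative stress genes 4 (44.4%) were higher and 1 (11.1%) was lower, with a median of 0.03. The superoxide dismutase gene sod-1 rose, to 495, 501 and 412 CPM in high-Pi from 324, 273 and 238 CPM in low-Pi (0.75, SE 0.126, adjusted p = 0.00139), and the NADPH oxidase gene nox-1 rose by 0.40. The catalase gene cat-2 fell, from 44.0, 35.0 and 34.1 CPM to 17.5, 14.4 and 19.3 CPM (-1.15, SE 0.136, adjusted p = 1.2e-04). The count of higher oxidative stress genes was 2 without low-Pi replicate III.

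Of 26 mutagen-sensitive and DNA repair genes tested 7 (26.9%) were lower, none was higher, and the median was -0.17, with no DEG. The decrease was largest in mus-53, the DNA ligase IV gene that acts with the Ku complex in end joining. It went from 40.1, 35.7 and 50.6 CPM in low-Pi to 13.2, 10.7 and 21.3 CPM in high-Pi (-1.47, SE 0.268, adjusted p = 0.00756), just short of the fold threshold. The gene mus-11, a homolog of RAD52 of recombinational repair, fell by 0.50 on the log2 scale. Both passed the adjusted p-value whichever library was left out. The count of lower members was 4 without high-Pi replicate II, and with the block or without high-Pi replicate III, low-Pi replicate I or low-Pi replicate II the list held 1 DEG.

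Protein kinase genes were listed by symbol, which did not reach all of them. The list stood near all genes in the share that was lower and under it in the share that was higher. Of 56 tested 9 (16.1%) were lower and 4 (7.14%) higher, with 1 down-regulated DEG (1.79%) and a median of -0.04. The kinase gene stk-26 was a DEG, falling from 266, 285 and 342 CPM in low-Pi to 94.4, 91.2 and 112 CPM in high-Pi (-1.59, SE 0.120, adjusted p = 4.8e-06), and lay below the fold threshold without low-Pi replicate III (-1.48). The genes stk-52 and stk-34 fell by 1.48 and 1.26 on the log2 scale. The gene pkac-1, a catalytic subunit of protein kinase A, rose by 0.45. The list had 5 lower members without high-Pi replicate II and 2 higher members when any 1 low-Pi library was left out.

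In primary metabolism changes were small and in both directions. Of 37 amino acid synthesis genes 10 (27.0%) were lower and 5 (13.5%) higher, with a median of -0.02. The gene leu-1 rose by 0.64, while thr-5 and arg-3 fell by 1.04 and 0.59. The count of lower members was 15 with the replicate number as a block, 3 without high-Pi replicate II and 6 without low-Pi replicate II. Of 8 nitrogen genes 2 (25.0%) were higher and 2 (25.0%) lower, among them nmr, a repressor of nitrate assimilation, which fell by 0.48. With 1 library left out no more than 1 nitrogen gene was higher, and without high-Pi replicate II 1 was lower. Of 11 heat shock genes 4 (36.4%) were higher and 2 (18.2%) lower with a median of 0.20, and hsp30 fell by 0.64. The count of higher heat shock genes was 6 with the block, 1 without high-Pi replicate II and 0 without low-Pi replicate II.

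The other lists held no DEG. Of 19 cell wall genes 2 (10.5%) were higher, as ncw-2 (0.51), and 4 (21.1%) lower, as ncw-3 (-0.66), and of 8 cell fusion genes 3 (37.5%) were higher, as ham-8 (0.51). Of 6 acetate and glyoxylate genes 2 (33.3%) were higher, and of 6 cytoplasmic ribosomal protein genes 1 (16.7%). Without high-Pi replicate II none of the acetate and ribosomal protein genes was higher and 2 of the cell wall genes were lower, and without low-Pi replicate II 1 cell wall gene was lower. Among 67 ribosome biogenesis genes, chosen by product name from genes the study selected on these samples, 2 (2.99%) were higher and 2 (2.99%) lower with a median of -0.04. With the block those counts were 5 higher and 9 lower, and without high-Pi replicate II both were 0. None of 7 DNA replication genes, chosen in the same way, passed the adjusted p-value, with log2 fold changes of -0.10 to 0.23.

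**Figure D4:**
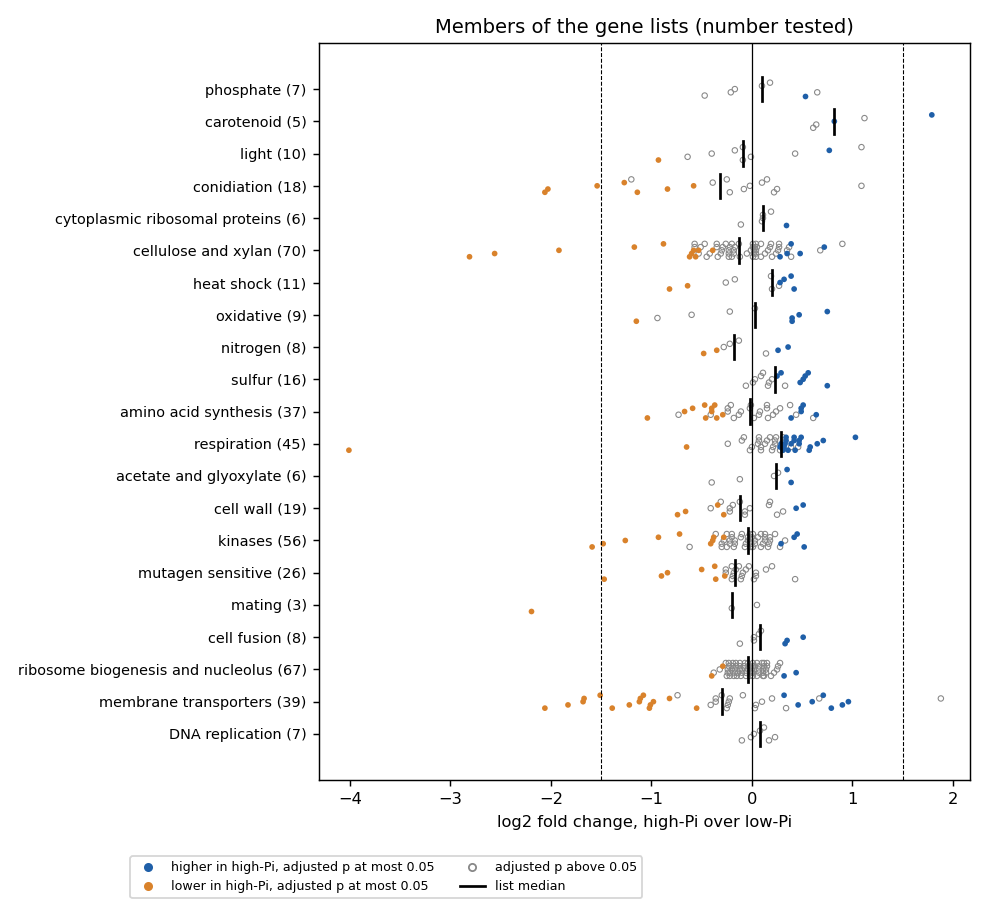
Log2 fold change, high-Pi over low-Pi, of each tested member of each gene list in the libraries labelled mus-52, with members that passed the adjusted p-value in blue (higher) or orange (lower), others open, and the list median as a bar. Dashed lines mark 1.5 in either direction. Decreases past the line occur in conidiation, cellulose and xylan, respiration, kinases, mating and membrane transporters, and the only increase past it that passed the test is al-1.

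The down-regulated DEGs were not spread evenly along the genome. Of the 287 tested genes within 100 kb of a chromosome end, taken as base 1 or the last annotated gene, 20 (6.97%) were down-regulated. The share was 6.58% at 100 to 200 kb, 5.08% at 200 to 400 kb, 5.15% at 400 to 800 kb and 2.75% farther in, against 3.45% over all genes. By chromosome it ran from 2.69% on I to 4.10% on III. Of the 272 DEGs 86 (31.6%) had another DEG as the next tested gene, against 529 of the 7612 tested genes placed on the 7 chromosomes (6.95%). They formed 40 runs, 39 of which went in 1 direction, and in 3 of which members overlapped in the annotation.

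The longest run had 4 genes on chromosome VI, between 142124 and 169027. NCU07110 went from 141, 150 and 178 CPM in low-Pi to 36.6, 27.2 and 38.1 CPM in high-Pi (-2.20). NCU07108, NCU07102 and NCU07101 fell by 2.24, 3.30 and 2.14 on the log2 scale. A run of 3 lay nearer the end of the same chromosome, between 29375 and 37282. In it NCU07135 went from 616, 745 and 786 CPM to 101, 98.4 and 201 CPM (-2.42, adjusted p = 0.00418), and its neighbours NCU07136 and NCU07134 fell by 2.21 and 2.36. Several genes of the strongest decreases sat in such pairs near the start of chromosome II: NCU09629 with NCU09627, up to position 28669, and NCU09603 with NCU09604 (-3.14), up to position 78257. Each gene named from these runs kept its call whichever library was left out.

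The same genes were compared with the wild type, in a fit of all 12 libraries that shares 1 estimate of the spread. Its common dispersion was 0.0868, against 0.0151 in the 6 libraries labelled mus-52 alone, and wild-type replicate I stood apart, so values are given with and without it. Of the 262 down-regulated DEGs in that fit, 233 (88.9%) had a wild-type log2 fold change above 0, against 44.6% of all genes, with a median of 0.70. Without wild-type replicate I the share was 66.2% of 263, against 47.3% of all genes, and the median was 0.30. In the wild type 10 of the 262 (3.82%) were up-regulated DEGs, against 0.207% of all genes, and none was down-regulated, against 0.0129%. Without wild-type replicate I 11 of 263 (4.18%) were up-regulated and 1 (0.380%) was down-regulated, against 0.436% and 0.333% of all genes. Of the 9 up-regulated DEGs 4 were above 0 in the wild type, too few genes to read a direction from. The wild-type value was -1.23 for al-1 (0.04 without wild-type replicate I), -1.79 for NCU07748 (-0.83) and 0.01 for NCU00999 (0.54).

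The difference between the strains was itself tested. The response was more negative under the label mus-52 in 319 of 7746 genes (4.12%) and more positive in 11 (0.142%). Without wild-type replicate I the counts were 357 of 7804 (4.57%) and 50 (0.641%). The down-regulated DEGs made up 182 of the former, but they were chosen on libraries that enter this difference, so nothing is read from that count. For single genes the test is over all genes. The response of ccg-1 differed most firmly: it fell by 2.06 under the label mus-52 and rose in the wild type (2.31, SE 0.238, adjusted p = 0.00233), a difference of -4.37 (adjusted p = 7.0e-05), and the wild-type value without replicate I was 2.00. For bcs1 the wild-type value was 2.18 (adjusted p = 0.161), or 0.94 without replicate I (adjusted p = 0.354), and the difference was -6.19 (adjusted p = 0.00267). For clr-2 the wild-type value was 1.52 (adjusted p = 0.149), or 0.81 without replicate I (adjusted p = 0.0988), and the difference was -4.06 (adjusted p = 0.00200). A wild-type rise of bcs1 or clr-2 thus did not pass the test. Without wild-type replicate I the difference also passed both thresholds for al-1 (1.77, adjusted p = 0.0471, against 3.02, adjusted p = 0.0935 with it), con-13 (-2.28, adjusted p = 0.00912, against -3.78, adjusted p = 0.0600) and pho-5 (-1.66, adjusted p = 0.00439, against -0.61, adjusted p = 0.652). By the adjusted p-value alone it then also passed for NCU00999 (1.06, adjusted p = 7.8e-04), pho-2 (0.88, adjusted p = 0.0152) and mus-52 itself (-0.67, adjusted p = 0.0378), where with it the differences were 1.57 (adjusted p = 0.134), 0.69 (adjusted p = 0.186) and -0.91 (adjusted p = 0.392). Mating type differs between the strains as mus-52 does, and the 2 cannot be told apart.

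**Figure D5:**
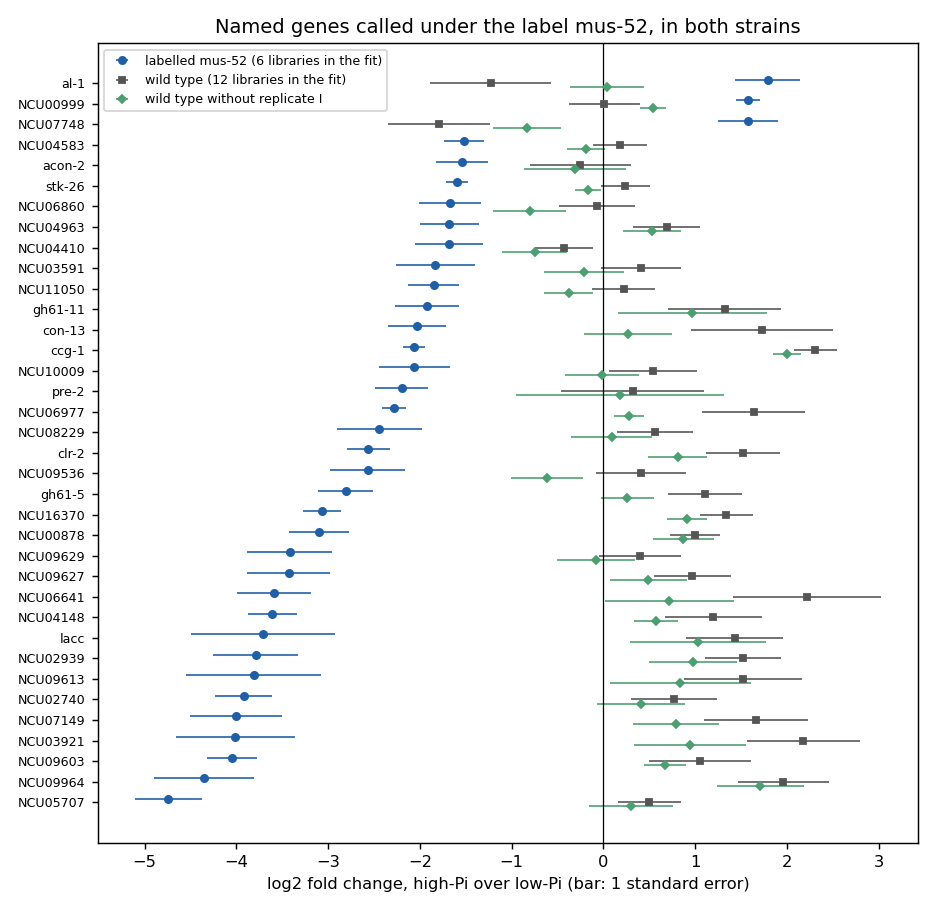
Log2 fold change, high-Pi over low-Pi, of the 36 named DEGs in the libraries labelled mus-52 (blue circles), in the wild type (grey squares) and in the wild type without replicate I (green diamonds), with bars of 1 standard error. The decreases under the label mus-52 lie left of 0 and most wild-type values near or right of it, with ccg-1 the clearest at -2.06 against 2.31.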

How the data were processed

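RNA was sequenced from 3 biological replicates per strain and medium as 100-bp paired reads. The authors viewed read quality with FastQC 0.11.2 before and after trimming low-quality ends, and aligned the rest with Bowtie2 2.1.0 to the NC12 assembly. The deposited values are raw counts per gene, and the counting tool and its use of strand are not given in the sources used here. The authors' DESeq 1.28.0 tables hold their means, fold changes and p-values for the media comparisons and were not used. In R 4.3.3, edgeR 4.0.16 (limma 3.58.1) filtered genes with filterByExpr, scaled libraries by TMM and fitted robust quasi-likelihood models to the 6 libraries labelled mus-52, with p-values adjusted by Benjamini-Hochberg over 7613 genes and CPM given on the TMM scale. The log2 CPM values behind the correlations and principal components have a prior count of 2. The 95% intervals are 1.96 SE to either side, a normal approximation that is narrower than the quasi-likelihood test allows. The steps were tested on simulated data. Totals of 17888120 to 56152963 counts set the precision, and counting limits cover counting error only.

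Same-numbered libraries deviated together (r = 0.299, 0.122 and 0.145 for I, II and III, against -0.218 to 0.0632 for other pairs), so the numbers may pair the samples. The fit reported does not use such a pairing, and the fit with the replicate number as a block was the alternative. By the adjusted p-value alone the block gave 1363 genes higher and 1625 lower, against 1089 and 1322 in the fit reported. Other alternatives were DESeq2 1.42.0, RLE factors, other count filters, all 12 libraries in 1 fit, other thresholds, mating-type dependent genes left out, and each library left out. Symbols and NC12 positions came from the RefSeq gene table (9729 of 9730 IDs matched), product names from the study's supplementary lists. Named genes were mus-52, up to 12 non-overlapping DEGs of at least 5 CPM in each direction, the 6 DEGs of highest mean CPM, up to 4 DEGs per list with all phosphate genes, and the genes the study names for this comparison. The genes, lists and tests were chosen with earlier results of these data known. A planned search of promoters for a motif was not run, and 1 gene of the repair list is not reported here.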

Additional observations from a re-analysis of the deposited data

Results flagged for a closer look

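The response to Pi differed between the libraries labelled mus-52 and the wild type in 28 of the 45 named genes tested, at an adjusted p of at most 0.05 and a difference of at least 1.5 on the log2 scale (edgeR, strain by Pi interaction over all 12 libraries, 7746 genes tested). Over all genes tested 4.12% were more negative under the label mus-52 and 0.142% more positive. Most named genes were chosen as DEGs of libraries that enter this test, so nothing is read from the count. Of the 28 genes 27 were more negative under the label mus-52, the direction in which they had been chosen. One was more positive, the hypothetical protein gene NCU07748 (3.37, adjusted p = 0.0286), which had been chosen as an increase.

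The widest differences were those of NCU09964 (-6.31, adjusted p = 8.3e-04), NCU03921 (-6.19, adjusted p = 0.00267), NCU06641 (-5.81, adjusted p = 0.0108), NCU07149 (-5.65, adjusted p = 0.00273), NCU09613 (-5.34, adjusted p = 0.00656), NCU02939 (-5.29, adjusted p = 6.8e-04), NCU05707 (-5.28, adjusted p = 2.3e-04), lacc (-5.14, adjusted p = 0.00313) and NCU09603 (-5.10, adjusted p = 0.00511). These genes were chosen for the strongest decreases in libraries that enter the difference, so nothing is read from this order. NCU03921 is named as the mitochondrial chaperone bcs1 and lacc as a laccase precursor. The others of this group have no product name other than hypothetical protein in the study's lists. Next came NCU04148 (-4.79, adjusted p = 0.00514), NCU02740 (-4.72, adjusted p = 0.00229), NCU09627 (-4.43, adjusted p = 0.00200), NCU16370 (-4.42, adjusted p = 2.3e-04), NCU00878 (-4.10, adjusted p = 2.3e-04), NCU06977 (-3.93, adjusted p = 0.0149) and NCU09629 (-3.83, adjusted p = 0.00554). Of genes with a known role, the difference passed for ccg-1 (-4.37, adjusted p = 7.0e-05), clr-2 (-4.06, adjusted p = 0.00200), gh61-5 (-3.92, adjusted p = 0.00280), gh61-11 (-3.23, adjusted p = 0.0362), NCU10009 (-2.60, adjusted p = 0.0466) and NCU04963 (-2.38, adjusted p = 0.0213). These are the clock-controlled gene ccg-1, the cellulase regulator clr-2, the family 61 genes and the ABC and glucose transporters.

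Among the DEGs of highest mean CPM it passed for NCU08229 (-3.01, adjusted p = 0.0130) and NCU09536 (-2.98, adjusted p = 0.0325). The differences of NCU11050 (-2.07, adjusted p = 0.0325), stk-26 (-1.83, adjusted p = 0.0183) and NCU04583 (-1.70, adjusted p = 0.0348) did not pass both thresholds once wild-type replicate I was left out in both media (-1.46, -1.40 and -1.31), an alternative chosen after seeing the data, and the other 25 still did.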

How the results depend on the processing

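A block for the replicate number gave 283 down- and 9 up-regulated genes (263 and 9 in the fit reported), of which 259 and 9 were shared, and no named gene changed its call. Genes whose adjusted p-value crossed the threshold are given beside their values. Leaving out 1 library gave 228 to 326 down- and 4 to 14 up-regulated genes, and 168 and 1 were called in each such fit, a count chosen after seeing the data. Up-regulated genes numbered 3 with at least 10 counts in every library and 2 with all 12 libraries in 1 fit, where 200 were down-regulated. In that fit, with its wider spread, the genes past the adjusted p-value fell from 2411 to 365 (17 higher, 348 lower). None of the respiration, sulfur and carotenoid lists was higher, and al-1, NCU07748, con-13, acon-2 and gh61-11 lost their call. Of the 63 genes singled out after their values were seen, 35 lost a threshold they had passed. By the adjusted p-value alone 1089 genes were higher and 1322 lower, and at a log2 fold change of at least 1, 29 were up- and 491 down-regulated. DESeq2 gave 9 up and 278 down, RLE factors 9 and 261, no filter 11 and 288, and leaving out mating-type dependent genes 9 and 242. Of the 45 named genes tested, none changed direction in these fits. Without high-Pi replicate I or II 8 lost their call, III 2, without low-Pi replicate I 3, and II or III 9. With 1 library left out mfa-1 gave -0.80 to 0.30, turning direction without high-Pi replicate III or low-Pi replicate I. NCU11307 passed with DESeq2 (1.89) and without high-Pi replicate III (2.34). The strain difference turned direction without wild-type replicate I for mak-2 (0.87), nuc-1 (-0.20) and nuc-2 (-0.06), none of which passed the test. Depth limits genes near 1 CPM, where 3 counts stand for up to 0.169 CPM.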

Other observations

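Further down-regulated genes with a product name, picked after their values were seen, were called whichever library was left out. The gene ci-1 (NCU05001), known as cycloheximide-inducible, stood at 345, 535 and 718 CPM in low-Pi replicates I, II and III and 59.2, 75.1 and 98.5 CPM in high-Pi replicates I, II and III (-2.78, SE 0.339, adjusted p = 0.00296 by edgeR). The carbonic anhydrase gene NCU04778, for an enzyme that hydrates carbon dioxide, fell from 10.7, 13.8 and 18.1 CPM to 2.04, 2.80 and 2.86 CPM (-2.47, SE 0.222, adjusted p = 1.9e-05). The glutathione transferase gene NCU09570 and the P450 monooxygenase gene NCU05376, of detoxifying enzyme families, fell by 2.24 and 1.97 on the log2 scale. The neutral ceramidase gene NCU10359 fell by 2.08, and the cyclin gene NCU09085, which overlaps NCU16318, by 2.01. Most of the DEGs had no name in the sources used here: 13 of 272 had a symbol and 40 a product name other than hypothetical protein.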
